A study of Mus musculus with 6 samples.

Results

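The Frizzled receptors are the genes Fzd1 to Fzd10, 10 of the 36282 gene symbols on the array, and their transcripts were measured in the LSC GFP+ and the LSC GFP- cells of the neonatal mouse prostate. All probes that the array design names after one of these genes were taken. This gave 13 of the 55681 probes, with 2 probes each for Fzd2, Fzd5 and Fzd7 and 1 probe for each of the other 7 genes. Cells were sorted from prostates of male FVB/N mice at the age of 6 days. All mice carried the transgene Tg 11.5kb-GFP, in which the promoter of s-SHIP, a short form of the inositol phosphatase SHIP1, drives GFP, and no mouse was treated. LSC cells lack the lineage markers Ter119, CD31 and CD45 and carry Sca-1 and CD49f, a surface profile of basal prostate cells, and they were divided into LSC GFP+ and LSC GFP- cells by their fluorescence. Amplified RNA of 3 samples of each population was hybridised to 6 single-colour arrays. The comparison asks how the LSC cells with an active s-SHIP promoter differ from the other LSC cells. GFP reports the activity of the transgene's promoter, so the populations are fractions of 1 gate and not lineages.

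Frizzled proteins are receptors that cross the membrane several times and bind Wnt ligands through a cysteine-rich domain outside the cell. With the co-receptors Lrp5 and Lrp6 they relay the signal through Dishevelled to β-catenin, and with other partners they act in planar cell polarity and in calcium signalling. In the prostate, Wnt signals act during budding and branching of the epithelium and in its basal progenitor cells.

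The family resembles itself in sequence, so the probes of 60 bases were first compared with each other. Among the 78 pairs of Frizzled probes, 1 pair was alike, the probe of Fzd2 that starts at position 1868 of its transcript and the probe of Fzd7 that starts at position 2376. They match at 42 of 50 aligned bases, or 84.0%, and the next pair matches at 26 bases. The 8 positions that differ between them are printed in capitals, and 6 of these lie at the same place of a 3-base frame. The Fzd2 probe lies at chr11:102467613-102467672 and the Fzd7 probe at chr1:59541367-59541426 of mm9, both on the plus strand, and they read, 5′ to 3′:
Fzd2 (1868): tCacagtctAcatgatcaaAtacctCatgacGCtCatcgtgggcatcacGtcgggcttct
Fzd7 (2376): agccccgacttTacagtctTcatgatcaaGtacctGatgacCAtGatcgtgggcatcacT
How much of the signal of either probe comes from the transcript of the other gene was not tested. The second probes of Fzd2, at position 3300, and of Fzd7, at position 4201, are not alike in this way. Exon and untranslated region borders of mm9 were not used here, so the probes are placed by transcript position alone.

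Of the 13 Frizzled probes, 11 had a higher average in LSC GFP+ cells, and 5 were higher at an unadjusted p under 0.05. These were the probes of Fzd1, Fzd9 and Fzd10 and 1 of the 2 probes each of Fzd2 and Fzd7. None was lower at that threshold. Of the 5, Fzd9 met the filter for testing through its LSC GFP+ arrays alone, the group where it was higher. The share of all 37005 tested probes called higher in LSC GFP+ cells was 3.38%, and the share called in either direction 7.90%. No Frizzled probe passed the Benjamini-Hochberg adjustment of limma's p over all tested probes, where the lowest adjusted p was 0.0984, for Fzd9, and 1 probe of the whole array passed. The 3 LSC GFP+ arrays lay above all 3 LSC GFP- arrays at 6 Frizzled probes, against 6.61% of all tested probes. The reverse held at 0 Frizzled probes, but its share over all tested probes was not counted, so this 0 is not read as a result. The median log2 difference was 0.49 over the 13 probes and -0.0044 over all probes. Levels are the log2 signal of a probe minus the 75th percentile of its array, and since probes differ in brightness a level is compared only between arrays and not between probes. With sorted pools, fewer cells that express a gene and less RNA per cell cannot be told apart. The limma p values set each difference against the spread between these samples, moderated over all tested probes.

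**Figure D1:**
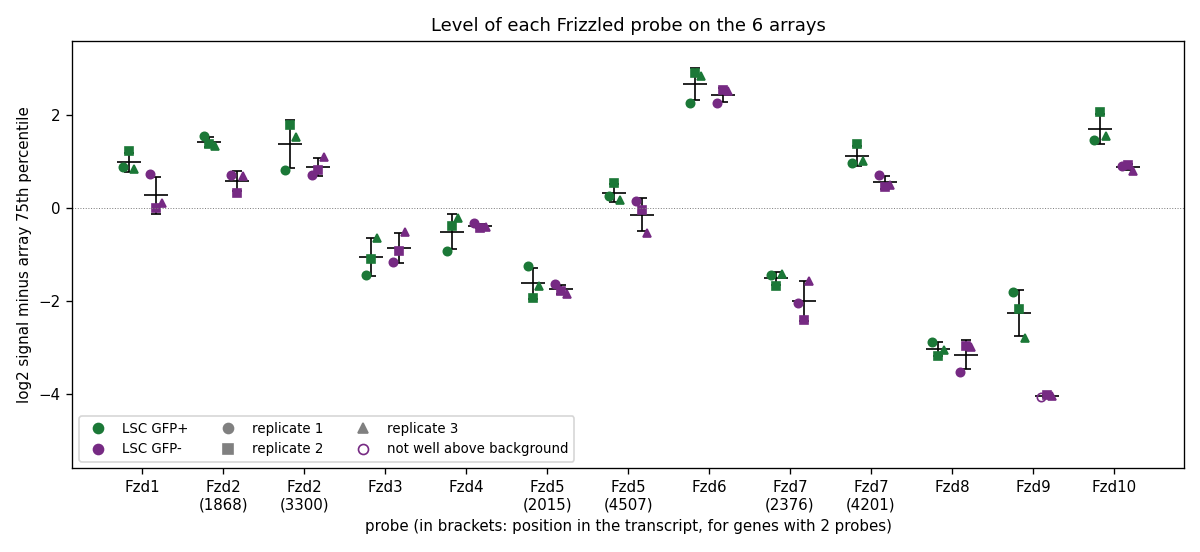
Level of each Frizzled probe on each array, as log2 signal minus the 75th percentile of the array, for the LSC GFP+ samples (green) and the LSC GFP- samples (purple), with horizontal bars for the mean and error bars for 1 SD (n = 3). The populations did not overlap for Fzd1, Fzd9, Fzd10, Fzd2 (1868), Fzd5 (4507) and Fzd7 (4201), and the open symbol is the array on which Fzd9 was not well above background.

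Fzd9, a receptor studied mainly in brain and bone, differed by more than the other Frizzled probes in the values as reported. Its log2 levels were -1.82, -2.17 and -2.80 in LSC GFP+ replicates 1, 2 and 3 and -4.06, -4.02 and -4.04 in LSC GFP- replicates 1, 2 and 3. The LSC GFP- arrays lay close together, and every LSC GFP+ array was above them. The LSC GFP- values were near the detection limit, with processed signals of 23.9, 25.2 and 25.6 in replicates 1, 2 and 3. The lowest signals marked as well above background on those arrays were 22.7, 17.1 and 17.5. The log2 difference was 1.78 (SE 0.27, 95% interval 1.15 to 2.40, n = 3 per population), a fold of 3.42, with an unadjusted limma p of 0.000183. The signal behind it was dim. Before background subtraction the spot gave 190.0, 194.0 and 130.0 units on the LSC GFP+ arrays and 91.8, 90.7 and 87.5 units on the LSC GFP- arrays. The scanner software marked the spot as well above background on 5 arrays, LSC GFP- replicate 1 being the exception. Fzd9 was therefore tested only because all 3 LSC GFP+ arrays, where it was higher, met the filter. With the filter on all 6 arrays it was not tested. There 4 of 12 Frizzled probes and 3 of 9 Frizzled genes were called higher, against 1168 of 33845 probes of the array. With normexp background correction and an offset of 50, which raises dim signals, the log2 difference was 0.70, still at an unadjusted p under 0.05, so the size of the Fzd9 difference depends on how background was removed. Its place in the family does too, since under that correction the Fzd2 probe at position 1868 differed by 0.78 and Fzd10 by 0.76.

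Fzd10, a receptor of the same branch of the family, was measured on brighter spots. Its log2 levels were 1.47, 2.07 and 1.55 in LSC GFP+ replicates 1, 2 and 3 and 0.91, 0.93 and 0.80 in the LSC GFP- replicates. The populations did not overlap. The log2 difference was 0.81 (SE 0.22, 95% interval 0.30 to 1.32), a fold of 1.76, with an unadjusted limma p of 0.00636 and an adjusted p of 0.295.

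Fzd1, Fzd2 and Fzd7 form the branch of the family best known for β-catenin signalling. Fzd1 had log2 levels of 0.89, 1.22 and 0.83 in the LSC GFP+ replicates and 0.73, -0.01 and 0.10 in the LSC GFP- replicates. The lowest LSC GFP+ array was 0.83 and the highest LSC GFP- array 0.73, so the groups were close. The log2 difference was 0.70 (SE 0.25, 95% interval 0.12 to 1.29), a fold of 1.63, at an unadjusted limma p of 0.0242 and an adjusted p of 0.482. In the arrays of replicate 1 the difference was 0.16, against 1.22 in replicate 2 and 0.72 in replicate 3. The Fzd1 call was lost without LSC GFP+ replicate 2, where the difference was 0.58, without LSC GFP- replicate 2, where it was 0.56, and without LSC GFP- replicate 3, where it was 0.62.

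The Fzd2 probe at position 1868 gave 1.55, 1.37 and 1.34 in LSC GFP+ replicates 1, 2 and 3 and 0.71, 0.32 and 0.69 in the LSC GFP- replicates. All LSC GFP+ arrays were above all LSC GFP- arrays. Its log2 difference was 0.85 (SE 0.20, 95% interval 0.38 to 1.31), a fold of 1.80, with an unadjusted limma p of 0.00302 and an adjusted p of 0.216. The brighter Fzd2 probe, at position 3300, gave 0.81, 1.79 and 1.53 against 0.72, 0.82 and 1.09. There the groups overlapped, and the difference of 0.50 (SE 0.28, 95% interval -0.15 to 1.16) did not pass, at an unadjusted limma p of 0.116. The value of LSC GFP+ replicate 1 was the low one, and without that array the difference was 0.79 and passed at an unadjusted p of 0.01. A difference between the 2 probes of Fzd2 was not tested. With the probes of a gene averaged, Fzd2 differed by 0.67 and passed at an unadjusted p of 0.00935.

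Fzd7, a receptor found in many stem cell populations, was called at its brighter probe, at position 4201 (chr1:59543192-59543251 of mm9). This probe gave 0.98, 1.37 and 1.0 in the LSC GFP+ replicates and 0.72, 0.44 and 0.49 in the LSC GFP- replicates. The groups did not overlap, with a log2 difference of 0.57 (SE 0.21, 95% interval 0.09 to 1.04), a fold of 1.48, at an unadjusted limma p of 0.0251 and an adjusted p of 0.487. The call was lost without LSC GFP+ replicate 2, where the difference was 0.44, without LSC GFP- replicate 2, where it was 0.51, and without LSC GFP- replicate 3, where it was 0.54. The probe at position 2376, the one that resembles Fzd2, gave -1.44, -1.69 and -1.42 against -2.05, -2.41 and -1.56. Its difference of 0.49 (SE 0.25, 95% interval -0.10 to 1.07) missed the threshold, at an unadjusted limma p of 0.0913, and was 0.24 under normexp correction. With the replicate number as a block this probe passed, at an unadjusted p of 0.0354, and so it did without LSC GFP- replicate 3, at a difference of 0.71.

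**Figure D2:**
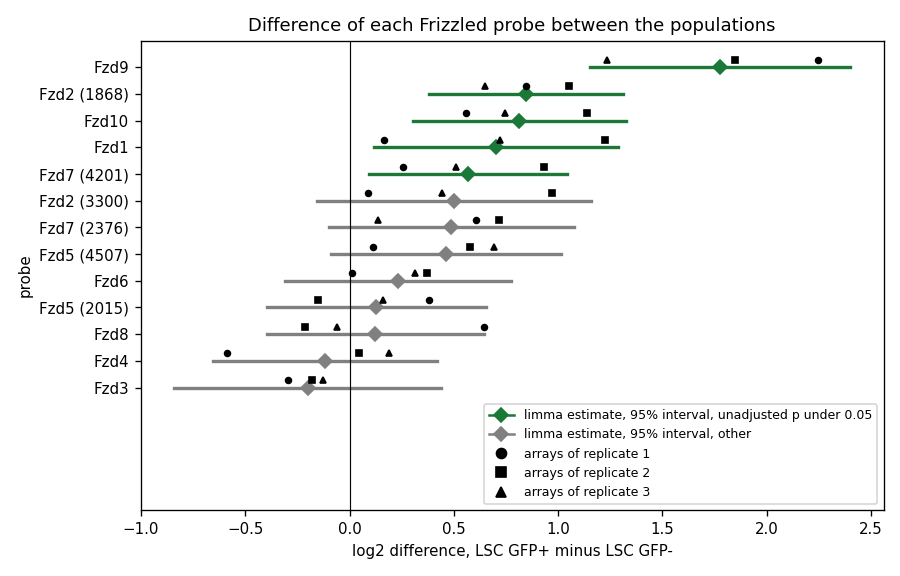
Log2 difference, LSC GFP+ minus LSC GFP-, for every Frizzled probe, with the limma estimate and its 95% interval (green at an unadjusted p under 0.05, grey otherwise) and, in black, the difference between the arrays of the same replicate number. Green intervals exclude 0 by the choice of threshold, and all 5 are on the higher side. In all 3 pairs of arrays 9 probes were higher, a count that was not made over all tested probes.

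Fzd5 and Fzd8, closely related receptors, did not pass at any of their probes. The Fzd5 probe at position 4507 gave 0.26, 0.53 and 0.17 in LSC GFP+ replicates 1, 2 and 3 and 0.15, -0.05 and -0.53 in the LSC GFP- replicates. The groups did not overlap, but LSC GFP- replicate 1 lay close to LSC GFP+ replicate 3. The difference was 0.46 (SE 0.24, 95% interval -0.09 to 1.01) at an unadjusted limma p of 0.0893, and with the replicate number as a block it passed at an unadjusted p of 0.0422. The other Fzd5 probe, at position 2015, gave -1.26, -1.93 and -1.68 against -1.64, -1.78 and -1.84, with overlap and a difference of 0.13 (SE 0.23). For Fzd8 the levels were -2.88, -3.18 and -3.05 against -3.52, -2.96 and -2.99. LSC GFP- replicate 1 was the lowest Fzd8 array, the groups overlapped and the difference was 0.12 (SE 0.22, 95% interval -0.40 to 0.64), with its sign turned under normexp correction, at -0.02.

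Fzd6 and Fzd3, receptors known for planar cell polarity in hair and neurons, and Fzd4, the receptor of norrin in blood vessels, did not pass either. Fzd6 gave 2.27, 2.90 and 2.83 in the LSC GFP+ replicates and 2.26, 2.53 and 2.52 in the LSC GFP- replicates. Its difference was 0.23 (SE 0.23, 95% interval -0.31 to 0.77), and replicate 1 was the low array in both populations. Fzd3 gave -1.45, -1.10 and -0.64 against -1.16, -0.92 and -0.51, and was lower in LSC GFP+ cells in 3 of 3 pairs. The spread among replicates was wider than the difference between populations, at -0.20 (SE 0.28, 95% interval -0.84 to 0.44). Fzd4 gave -0.92, -0.38 and -0.22 against -0.33, -0.43 and -0.41, with a difference of -0.12 (SE 0.23, 95% interval -0.65 to 0.42). The tests do not show that the levels of these 3 genes were alike in the populations. Without LSC GFP+ replicate 1 the difference was 0.43 for Fzd6, at an unadjusted p of 0.0759, and 0.09 for Fzd4.

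With each gene taken at its brightest probe, 4 of the 10 Frizzled genes were higher at an unadjusted p under 0.05, Fzd1, Fzd7, Fzd9 and Fzd10, and 0 were lower. Of all 25613 genes tested in this way, 3.38% were higher and 4.29% lower. The median log2 difference was 0.48 over the 10 genes and -0.0069 over all genes. With the replicate number as a block, 7 probes and 5 genes of the family were called higher. Over the array, 2495 of 37005 probes were called higher with the block and 1250 without it. In either direction these counts were 5480 and 2925. The share of all genes called with the block was not counted. Leaving out LSC GFP+ replicate 2 or LSC GFP- replicate 2 left 3 Frizzled probes and 2 genes, and leaving out LSC GFP- replicate 3 left 4 probes and 2 genes. Over the array, the probes called higher in these fits were 1130 of 38403, 867 of 37297 and 1355 of 37433. Fzd9, Fzd10 and the Fzd2 probe at position 1868 passed with each of the 6 arrays left out in turn.

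**Figure D3:**
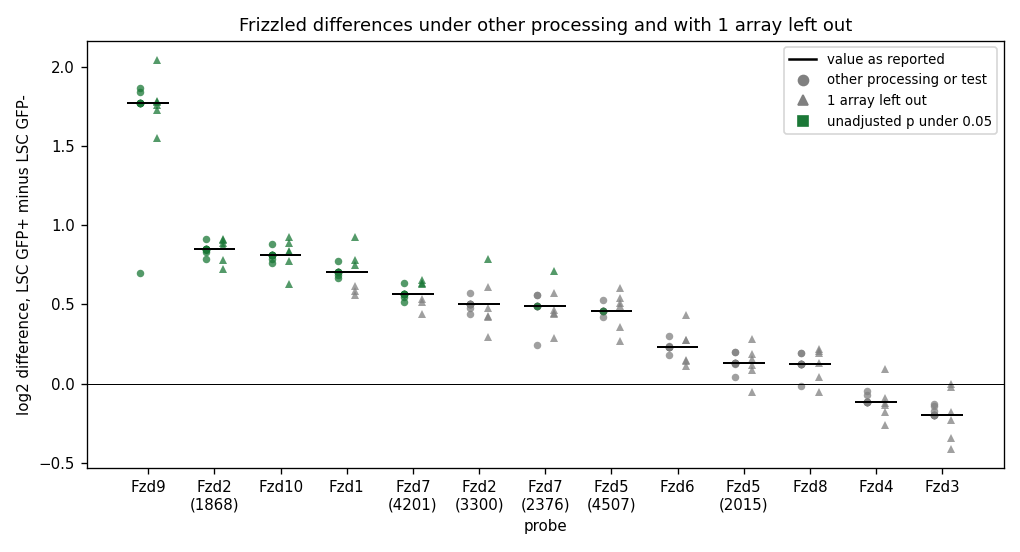
Log2 difference, LSC GFP+ minus LSC GFP-, for every Frizzled probe as reported (black line), under other processing or tests (circles) and with 1 array left out (triangles), green at an unadjusted p under 0.05. Fzd9 ranges from 0.70, under normexp correction, to 2.05, while Fzd2 (1868) and Fzd10 keep values above 0.6.

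The promoters of 6 Frizzled genes, among them the 4 called at their brightest probe, were found in a RefSeq table for GRCm38.p6, and the 250 bases before each start were read. The TCF/LEF core CTTTGA, the site at which the nuclear partners of β-catenin bind, was searched on both strands and occurs in 13.8% of the 32851 promoters. It was found in 1 of the 6, that of Fzd1. The GC box GGGCGG, a site of the Sp family, occurs in 32.7% of all promoters and was found in 5 of the 6, with 7 matches for Fzd4, 9 for Fzd5, 6 for Fzd7, 1 for Fzd9 and 1 for Fzd10. In 5 of the 6, the upstream bases had more G and C than the median promoter at 52.4%, from 65.2% for Fzd7 to 76.4% for Fzd5, Fzd9 and Fzd10, and Fzd1 had 51.2%. The promoters of Fzd1, the one with the TCF/LEF core, and of Fzd9, a called gene whose difference depended on the background correction, are given with the matches to either motif in capitals. They lie at chr5:4758217-4758466 and chr5:135251048-135251297 of GRCm38.p6, both on the minus strand, and read, 5′ to 3′:
Fzd1: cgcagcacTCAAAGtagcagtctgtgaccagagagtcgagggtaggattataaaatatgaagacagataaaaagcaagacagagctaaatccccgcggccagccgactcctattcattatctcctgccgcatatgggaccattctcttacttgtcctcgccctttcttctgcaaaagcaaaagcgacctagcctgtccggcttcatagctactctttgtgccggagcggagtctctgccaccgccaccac
Fzd9: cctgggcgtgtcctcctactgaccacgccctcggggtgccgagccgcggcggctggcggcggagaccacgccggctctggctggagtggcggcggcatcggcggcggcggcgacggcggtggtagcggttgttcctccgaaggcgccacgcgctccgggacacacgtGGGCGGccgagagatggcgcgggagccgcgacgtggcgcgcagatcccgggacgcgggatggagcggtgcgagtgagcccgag
A match describes these letters and not a bound factor, and the arrays measured no binding.

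The genes that act with the receptors were taken from 7 lists of the pathway, at their brightest probes. Of 69 tested genes, 13 were higher and 7 lower at an unadjusted p under 0.05, none passed adjustment, and their median log2 difference was 0.09. Over all genes the shares were 3.38% higher and 4.29% lower. The counts of the pathway and marker lists are to be read against these shares. Ror2, Kremen2 and Rspo3 were tested only because all arrays of the population where each was higher met the filter. With the filter on all 6 arrays, 11 of 64 pathway genes were higher and 6 lower, against 1168 and 1336 of 33845 probes. The list nearest to the receptors holds the proteins that set how long Frizzleds stay at the surface, and 5 of its 6 tested genes were higher and 1 lower. Lgr6, an R-spondin receptor that spares Frizzleds from degradation, was higher by 1.21 (SE 0.23), although its second probe gave -0.04, and Lgr5 by 0.94 (SE 0.25). The ligand Rspo3 fell by 1.61 on the log2 scale (SE 0.44), with 2 of the 3 LSC GFP+ spots well above background. The other 3, named after their values were seen, were Lgr4 at 0.70 and the ubiquitin ligases Rnf43 at 0.68 and Znrf3 at 0.58, which remove Frizzleds from the membrane.

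Of 11 co-receptors and partners, 2 were higher and 0 lower. These were Ror1, at 1.49 (SE 0.26), and Ror2, at 1.17 (SE 0.35), receptors of Wnt5a, the latter with 2 of the 3 LSC GFP- spots well above background, while the co-receptors Lrp5 and Lrp6, named after their values were seen, differed by -0.04 (SE 0.20) and 0.04 (SE 0.22). Of 14 Wnt ligands, 1 was higher, Wnt10b at 1.40 (SE 0.27), and 1 lower, Wnt2b, which fell by 0.90 (SE 0.20). Of 8 other proteins that carry a Frizzled-type cysteine-rich domain, Sfrp2 was higher by 0.84 (SE 0.30) and Sfrp1, a secreted Wnt binder, fell by 1.57 (SE 0.38). Among 7 further antagonists, Wif1 was higher by 1.97 (SE 0.29) and Kremen2, likewise with 2 such LSC GFP- spots, by 1.15 (SE 0.30), and Sostdc1 fell by 1.38 (SE 0.29). Of 14 genes of the cytoplasmic relay, Lef1 was higher by 1.58 (SE 0.32) and Tcf7 by 0.69 (SE 0.24), and the Dishevelled genes Dvl1, Dvl2 and Dvl3, which bind Frizzleds directly and were also named after their values were seen, differed by 0.10, 0.15 and 0.0041 without passing. Of 9 planar polarity partners, 0 were higher and 3 lower, and Daam2 fell by 1.38 (SE 0.24), Prickle1 by 0.59 (SE 0.23) and Celsr1 by 0.58 (SE 0.20).

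**Figure D4:**
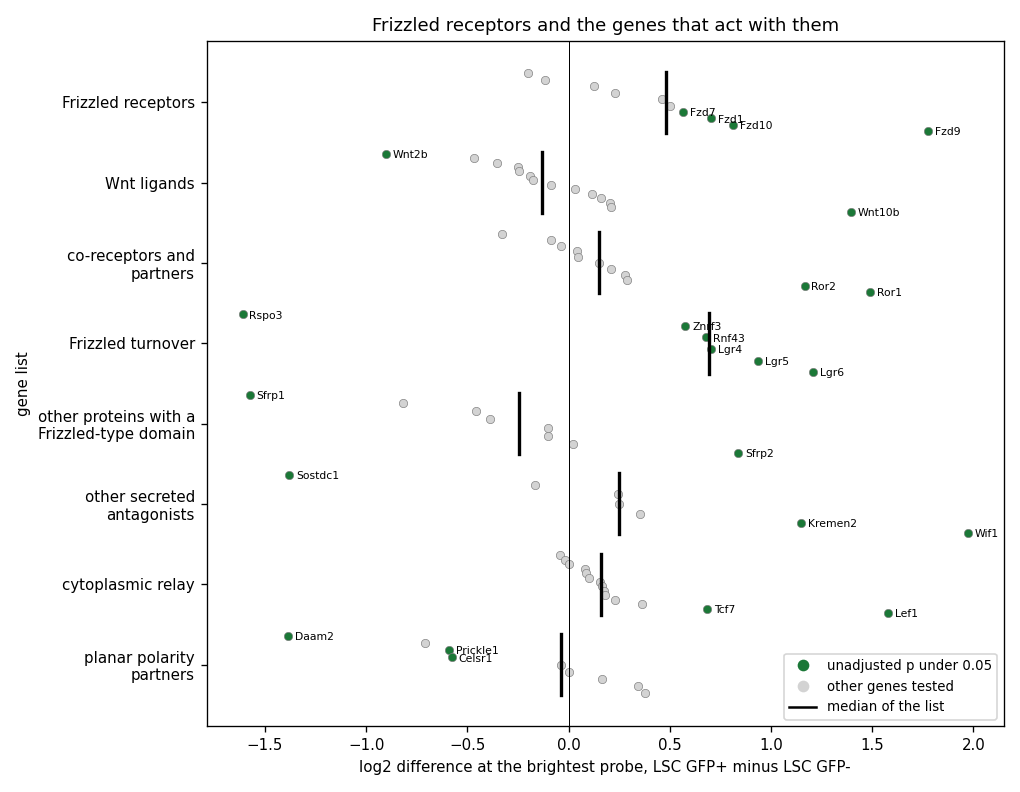
Log2 difference, LSC GFP+ minus LSC GFP-, of each Frizzled gene and of the tested genes of 7 pathway lists, each taken where it was brightest, with a black line for the median of each list and names for genes at an unadjusted p under 0.05 (green). The medians were 0.48 for the Frizzled receptors, 0.69 for Frizzled turnover and between -0.25 and 0.25 for the other lists.

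Markers of other cell types moved between the same arrays. The smooth muscle markers were lower in LSC GFP+ cells at 7 of 7 tested genes. Their summed linear levels, relative to the 75th percentile, were 6.7 to 10.6 against 20.8 to 40.7. The stromal markers were lower at 6 of 11, with sums of 25.3 to 32.2 against 24.9 to 66.4. Dcn and Fbln1, the latter named after its value was seen, were higher. The stromal sums include Dcn, the brightest gene of that list. Of the 6 lower stromal markers, Twist1 and Pdgfra, also named after their values were seen, met the filter through LSC GFP- arrays alone. Both were higher in that population, and Twist1 was well above background on 0 LSC GFP+ arrays and Pdgfra on 2. Of 11 basal markers 7 were higher and 0 lower, with sums of 237.0 to 255.0 against 177.0 to 188.0, of 8 luminal markers 2 were higher and 2 lower, and of 5 endothelial markers 1 was lower. None of the 7 immune, 5 glial and neuronal and 2 pan-epithelial markers tested passed. The sorting markers Itga6 and Ly6a differed by 0.25 (SE 0.22) and -0.36, and Gapdh by 0.04 (SE 0.27). The highest stromal sum, 66.4, and the highest smooth muscle sum, 40.7, were those of LSC GFP- replicate 1. Without that array 5 Frizzled probes were called higher, against 893 of 39091 tested probes of the array. The smooth muscle sums of the other LSC GFP- arrays, 20.8 and 24.0, were still above those of all LSC GFP+ arrays. The part of other cells in the Frizzled differences was not tested. Of the probes on an array, 36651 to 42123 were well above background, and no spot was saturated.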

How the data were processed

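RNA of 3 LSC GFP+ and 3 LSC GFP- samples was amplified, labeled with Cy3 and hybridised to 6 Agilent SurePrint G3 Mouse arrays on 1 slide, scanned in 1 run, so that no batches could be compared. The deposited intensity values of the authors are the processed signals of Feature Extraction 11.0.1.1 per the file headers (the submitters' processing notes name 10.7.3.1): linear, background-subtracted, with a spatial trend removed and not normalized between arrays. Probe positions are those of mm9 in the array design. The log2 signals were reduced by the 75th percentile of each array, outlier spots (123 to 154 per array) were left out and spots of a probe averaged. Probes were tested if they were well above background on each of the 3 arrays of either population, with limma 3.58.1 (R 4.3.3, two-sided, 3 against 3), which was tested on simulated data, and adjusted by Benjamini-Hochberg. A call is an unadjusted p under 0.05. The number of arrays limits the precision: an exact permutation test cannot give a p under 0.1.

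The members and lists were chosen with earlier results of these data known. Genes named beside the Frizzled receptors are, per pathway list, at most the 3 called genes with the smallest p, the sorting markers and Gapdh. The rule also covers the brightest gene of each marker list, each at its brightest probe. These differed by 0.11 (Trp63), -0.18 (Cd24a), -0.03 (Epcam), 1.19 (Dcn), -0.86 (Tagln), 0.02 (Kdr), -0.03 (Itgam), -0.02 (Snap25) and 0.25 (Itga6). Trp63 has 4 probes on the array, Itgam 3 and Kdr 2, and their other probes are not given here. Genes named outside this rule are marked where they appear. Deviations from the population means correlated with r of 0.433, 0.277 and 0.668 for arrays of the same replicate number in the labels, which is above 0.1 for each number. Arrays of different numbers gave r from -0.547 to 0.223. Since deviations within a population sum to 0, these r depend on each other and do not settle whether the arrays were paired. The reported fit has no block, and the paired fit (a block for each replicate number) is an alternative whose values are given where they change a call. Alternatives were normexp with an offset of 50, quantile and median scaling, the rounded values of the series table, other filters, the methods' t-test, an intensity trend, the replicate block, the mean over probes of a gene and each array left out. RefSeq accessions named 26582 probes.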

Additional observations from a re-analysis of the deposited data

How the results depend on the processing

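The 4 Frizzled genes at their brightest probes and the 5 Frizzled probes stayed within 1.5 times of these counts under all other scalings, background corrections, filters and tests. With each array left out in turn, Frizzled probes called ranged from 3 to 6 and Frizzled genes from 2 to 5, all of them higher. All probes called ranged from 2283 to 4061, those called higher from 867 to 1355, and pathway genes called from 15 to 20. The replicate block, the paired fit, raised all probes called from 2925 to 5480 and, beyond the calls given for Fzd5 and Fzd7, turned no Frizzled call. Its pathway count was 26 against 20. All probes called split into 1250 higher and 1675 lower, but into 1471 and 1299 with median-scaled arrays and 1668 and 1606 with quantile-normalized ones. The median log2 difference over all tested probes was -0.0044 as reported, 0.0647 with median-scaled arrays and 0.0123 with quantile-normalized ones. The values with a turned sign were Fzd8 at -0.0155 under normexp correction, and, with arrays left out, Fzd8 from -0.0565 to 0.22, Fzd4 from -0.26 to 0.0907 and the dimmer Fzd5 probe from -0.0539 to 0.28, none of them called. Fzd1 missed the threshold in the methods' t-test (Student, equal variance), which called 4 Frizzled probes, all higher. Of all probes this test called 2798, with 1579 higher, and 0 after adjustment. Over all alternatives, the values of the 13 probes and of the gene means of Fzd2, Fzd5 and Fzd7 were counted together. Of these, 194 kept direction and side of the threshold, 7 lost it, 5 gained it, among them the Fzd2 mean, and 4 turned. The cause was not tested. Fzd9 could not be tested under the filter on all 6 arrays, since it was not well above background on LSC GFP- replicate 1. Under normexp correction the dim probes of Fzd9 and of Fzd7 at position 2376 moved by over 1.5 times, to 0.70 and 0.24. So did the uncalled probes of Fzd5 at position 2015, from 0.13 to 0.04, and of Fzd4, from -0.12 to -0.07.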
